A study of Mus musculus with 18 samples.

Results

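Ribosome occupancy before stress was read in untreated mouse erythroblasts, the nucleated precursors of red blood cells, by setting ribosome footprints on the coding sequence (CDS) of each gene against the RNA of the same gene. The 6 untreated libraries used here, 3 of cycloheximide footprints and 3 of RNA, were chosen by their labels from the 18 of the series. The wider study asked how tunicamycin, which provokes phosphorylation of the initiation factor eIF2, alters translation, and the tunicamycin counts were left out here. All cells came from fetal livers of mice labelled Trp53 -/- on the strain FVB/n x C57BL/6, so no library describes cells labelled with intact p53. They were kept proliferating in StemPro with erythropoietin (0.5 U/ml), stem cell factor supernatant (1%) and dexamethasone (1 nM). For the footprint libraries cycloheximide (100 ug/ml) was added for the last 5 min to freeze ribosomes where they stood. Nothing in the labels tells separate cultures or animals from repeat preparations, and the p-values therefore cover the spread over these libraries, which may be technical.

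A ribosome covers a short stretch of the mRNA it is reading, and sequencing the stretches that survive nuclease shows how many ribosomes each message carries. Dividing footprints by RNA separates a message that is read often from a message that is only abundant. Erythroblasts rely on this layer of control: iron responsive elements govern ferritin and ALAS2 synthesis, the haem-regulated eIF2 kinase ties globin synthesis to haem supply, and stem cell factor signalling through mTOR favours messages with a 5' terminal oligopyrimidine (TOP) tract. Cycloheximide itself can alter where ribosomes sit, and its part in the values was not tested.

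The footprint libraries held 6652042, 6477411 and 6415127 CDS reads, and the RNA libraries 30827049, 48992797 and 12883350 reads. Libraries of 1 assay differed by more than counting noise, so none was taken for a library deposited again, which does not show that they were separate cultures. Of 20683 genes with a CDS row, 10000 had enough reads to test. Markers fitted the labelled cell type: all 11 erythroid markers were above 5 CPM (reads scaled to a common library size) and summed to between 4780 and 5068 CPM of RNA. None of the listed macrophage, neutrophil, hepatocyte or endothelial markers reached 5 CPM, and Alb, Afp, S100a8 and C1qa had no RNA reads. Megakaryocyte markers summed to 117 to 125 CPM, mostly Gp5, and mast cell markers to 128 to 195 CPM, mostly Ms4a2, and their part in the results was not tested. The count table held 0 reads of either assay for the adult globins, the beta genes Hbb-bs and Hbb-bt and the alpha genes Hba-a1 and Hba-a2, although 130548 untreated harringtonine reads were listed at Hbb-bs, so no globin ratio can be given.

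Trp53, the deleted gene, was read in every library. Its RNA was at 102, 117 and 110 CPM and its CDS footprints at 44.9, 37.2 and 47.2 CPM. The labels do not say which part of the gene was removed, and a count over the whole gene does not check the deletion. Its named pseudogene can also take or lend reads.

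Footprints followed RNA across genes, but loosely. Over the 9030 genes with at least 10 reads in every library, log2 footprints and log2 RNA had a Pearson correlation of 0.81 across genes, which are not independent replicates. The log2 ratio of CDS footprints to RNA had a median of -0.07 over all tested genes, and 90% of them fell between -3.06 and 1.52, a 24.0-fold spread. A gene was called higher or lower when the adjusted p of the edgeR quasi-likelihood test was under 0.05 and the ratio was at least 2-fold from equal. By that rule 1484 genes (14.8% of those tested) were called higher in footprints than in RNA, 2440 (24.4%) lower and 6076 neither. These shares are the background for the counts of every gene list below. Called higher genes made up 37.8% of all calls, and 27.0% when the libraries were scaled by their totals alone. Just past the 2-fold line, between log2 1 and 1.1 in size, were 269 higher and 192 lower genes, against 286 and 201 just short of it, between 0.9 and 1.

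RNA was counted over the gene and footprints over its CDS, with no correction for length, so a message with long untranslated ends has a lower ratio than its ribosome density alone would give. The ratio is comparable between libraries of a gene, and only loosely between genes.

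**Figure D1:**
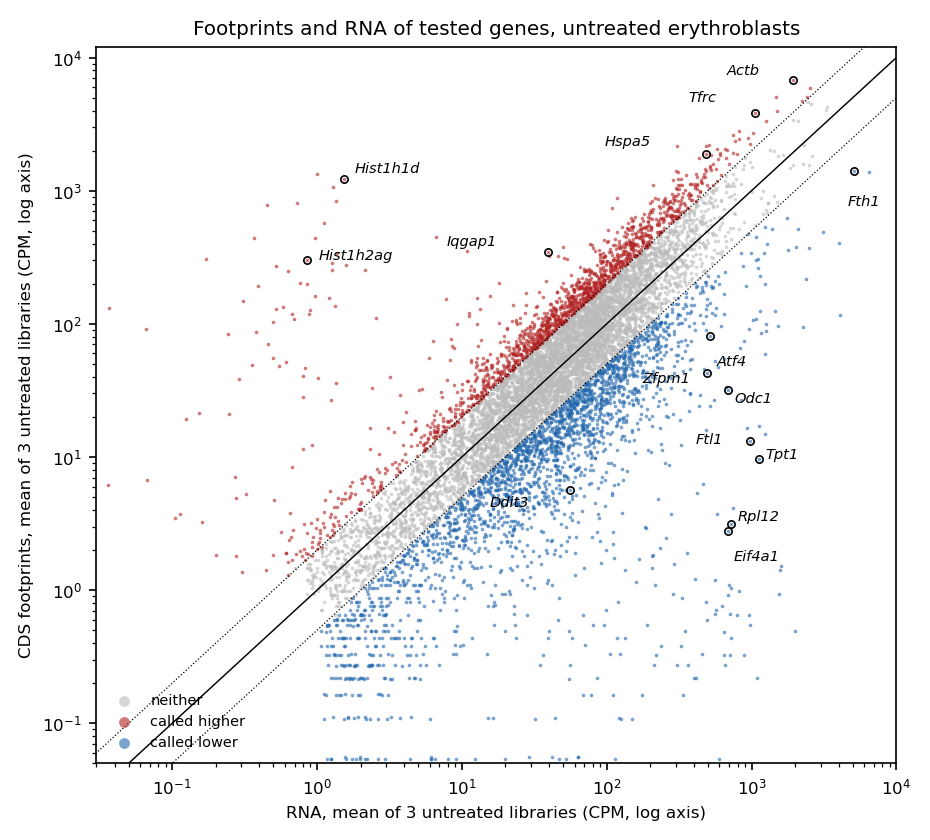
Mean CDS footprints (vertical, CPM) against mean RNA (horizontal, CPM) over 3 untreated libraries each, on log axes, for tested genes with reads in both assays. The solid line marks equal values, the dotted lines a 2-fold difference, and colours the calls. Hist1h1d lies far above the line and Rpl12, Eif4a1, Tpt1 and Ftl1 far below it.

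Several erythroid messages carried many footprints for their RNA. Tfrc, the transferrin receptor that imports iron, had 3909, 4124 and 3504 CPM of footprints against 1059, 1040 and 1057 CPM of RNA. Every footprint library was above every RNA library, a log2 ratio of 1.87 ± 0.08 (SE; adjusted p = 8.92e-12). Kit, the receptor of stem cell factor, had 1147, 998 and 982 CPM against 445, 376 and 404 CPM (log2 1.35 ± 0.09). Car2, the red-cell carbonic anhydrase, stood at 3945 ± 114 CPM of footprints (SD, n = 3) and 1510 ± 99.9 CPM of RNA (log2 1.39). It was among the 10 genes with the most footprints, a ranking without the adult globins, which had no counts.

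The receptor for erythropoietin did not share that pattern. Epor footprints were at 147, 132 and 144 CPM and its RNA at 227, 217 and 196 CPM, a log2 ratio of -0.60 ± 0.08 that fell short of 2-fold. Of the 17 tested growth receptors and signalling genes 1, Kit, was called higher, 6 lower and 10 neither, with a median of -0.45. Csf2rb, the beta chain shared by several haematopoietic cytokine receptors, had 95.2, 129 and 125 CPM of footprints against 502, 638 and 529 CPM of RNA (log2 -2.26 ± 0.12). Grb2, an adaptor that links receptors to Ras, was called lower as well (log2 -2.17 ± 0.10).

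Erythroid transcription factors split. Of 28 tested, 2 were called higher, 10 lower and 16 neither, and their median was -0.53. GATA1 and KLF1, the factors that switch on most red-cell genes, were called neither, with Klf1 above the upper quartile of all genes (log2 0.66). Gata1 had 461, 411 and 392 CPM of footprints against 334, 327 and 291 CPM of RNA (log2 0.41 ± 0.09), and Klf1 had 517, 528 and 645 CPM against 311, 351 and 341 CPM (log2 0.75 ± 0.09). The 2 lowest ratios among the 27 members with at least 10 reads in every library were those of Zfpm1 and Tal1. Zfpm1, which encodes the GATA1 cofactor FOG1, had 41.7, 41.8 and 44.4 CPM of footprints against 464, 489 and 513 CPM of RNA, an 11.5-fold gap (adjusted p = 1.23e-14). Tal1, which binds DNA beside GATA1, had 39.3, 42.3 and 36.3 CPM against 303, 269 and 259 CPM (log2 -2.82 ± 0.10). In both, every footprint value lay below every RNA value. Foxo3 (log2 1.43 ± 0.10) and Myc (log2 1.16 ± 0.08) were the members called higher, and the Myc call was lost with libraries scaled by totals or a mean of 50 reads required.

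Of 25 tested genes of the red-cell membrane and its skeleton 7 were called higher, 2 lower and 16 neither (median 0.65). Sptb, the erythroid beta spectrin of the lattice under the membrane, was among the high members, with 1333, 1575 and 1488 CPM of footprints against 468, 491 and 478 CPM of RNA (log2 1.61), and the ranges did not overlap. Gypc, encoding the glycophorin that anchors the lattice, was the lowest member, with 7.46, 8.83 and 10.9 CPM of footprints against 93.8, 131 and 98.5 CPM of RNA (log2 -3.57 ± 0.16). Ermap, an erythroid membrane protein, was lower at log2 -1.35, and 33.2% of its leader and CDS footprints lay in the 5' leader. With both kinds of footprint summed its ratio was -0.86, and the call was lost.

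Enzymes of haem synthesis mostly sat near the typical gene: 2 of 13 were called higher, 1 lower and 10 neither (median -0.16). Alas2, the erythroid enzyme of the first step, had 234, 301 and 276 CPM of footprints against 285, 386 and 385 CPM of RNA, and those ranges overlapped (log2 -0.38 ± 0.12, adjusted p = 0.0074). Its housekeeping relative Alas1 had 25.1 to 32.8 CPM of footprints and 10.4 to 13.2 CPM of RNA and was called higher (log2 1.34 ± 0.13). Urod, the uroporphyrinogen decarboxylase, was the highest member, at 567, 510 and 559 CPM against 146, 167 and 141 CPM (log2 1.85 ± 0.09). Slc25a39, a mitochondrial carrier needed for haem synthesis, was the member called lower (log2 -2.32 ± 0.10).

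Of 16 tested iron genes, which ran from log2 -6.22 to 1.87, 3 were called higher (18.8%), 4 lower (25%) and 9 neither. Both shares were near those of all tested genes (14.8% and 24.4%). Fth1, the ferritin heavy chain that stores iron, had 1561, 1476 and 1160 CPM of footprints against 5238, 5088 and 5049 CPM of RNA (log2 -1.87 ± 0.10, adjusted p = 9.41e-11). Ftl1, the light chain, had 18.3, 13.3 and 7.78 CPM against 1024, 1048 and 866 CPM, a 74.5-fold gap, and has 2 pseudogenes named after it in RefSeq. Slc25a37, mitoferrin 1, which brings iron into mitochondria, had 16.2, 22.3 and 21.6 CPM against 239, 290 and 265 CPM (log2 -3.73 ± 0.12).

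The 5 tested messages with a known iron responsive element in the 5' leader differed among themselves. Both ferritins were called lower, 2 members including Alas2 neither, and Slc40a1, the iron exporter ferroportin, higher at log2 1.08, a call lost under 3 alternatives. Aco1, the enzyme that doubles as an iron regulatory protein, was called higher, with 543, 548 and 518 CPM of footprints against 193, 203 and 208 CPM of RNA (log2 1.41 ± 0.08). For the iron list the median of member ratios was 0.18, while the ratio of summed CPM was -0.22 on the log2 scale, since Fth1 held much of the RNA.

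**Figure D2:**
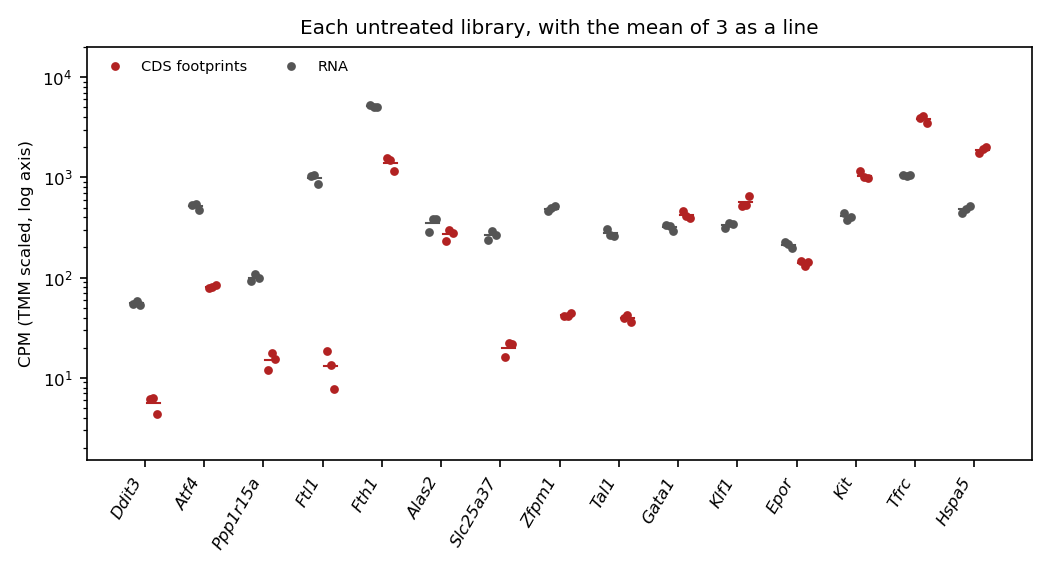
CPM (log axis) of 15 genes in each untreated library, RNA in grey and CDS footprints in red, with short lines at the means of 3. Footprints lie below RNA in every library for Ddit3, Atf4, Ftl1, Slc25a37, Zfpm1 and Tal1, and above it for Kit, Tfrc and Hspa5.

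Messages known to be restrained by upstream reading frames and released by eIF2 phosphorylation were mostly called lower in these untreated cells. Of 20 tested, 14 were called lower (70.0% against 24.4% of all genes), 2 higher and 4 neither, and the median was -1.71. Atf4, the transcription factor at the centre of the integrated stress response, had 79.5, 80.3 and 83.5 CPM of CDS footprints against 536, 544 and 478 CPM of RNA. The gap was 6.41-fold (log2 -2.68 ± 0.09, adjusted p = 2.39e-13), and the 3 footprint values agreed closely. Of the footprints on its leader and CDS together, 43.7% were in the leader.

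Ddit3, which encodes the pro-apoptotic factor CHOP, had 6.16, 6.33 and 4.38 CPM of footprints against 54.3, 59.0 and 53.6 CPM of RNA (log2 -3.31 ± 0.14), and 59.8% of its footprints were in the leader. Ppp1r15a, whose product GADD34 directs eIF2 dephosphorylation, had 12, 17.8 and 15.6 CPM against 93.1, 108 and 99.1 CPM (log2 -2.73 ± 0.12), with 30.8% in the leader. The extreme was Slc35a4, singled out after its values were seen: 29 CDS footprints in the 3 libraries together stood beside 376 in the leader, and its RNA was at 293 CPM.

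Some members of that list were not low. Ifrd1 had 98.9, 98.6 and 85.6 CPM of footprints against 170, 152 and 152 CPM of RNA (log2 -0.74 ± 0.09) and was called neither. Eprs (log2 1.92) and Hspa5 (log2 1.97) were called higher. The summed footprints of the list, 4376 CPM, therefore exceeded its summed RNA, 3981 CPM, while its median was negative. ATF4's target genes did not follow the low members: 5 of 23 were called higher, 3 lower and 15 neither, with a median of 0.10. Asns, asparagine synthetase, had 1087, 1039 and 964 CPM of footprints against 316, 319 and 309 CPM of RNA (log2 1.71).

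The polyamine pathway, another set under known translational control, had most members called lower. Of 12 tested members 8 were called lower, 1 higher and 3 neither (median -1.54). Odc1, ornithine decarboxylase, had 29.8, 37.3 and 28.9 CPM of footprints against 691, 698 and 684 CPM of RNA, a 21.6-fold gap (adjusted p = 5.57e-15). Sat1, the acetyltransferase that breaks polyamines down, was lower at log2 -1.83, with 48.3% of its footprints in the leader. With leader and CDS footprints summed its ratio was -0.97. Its leader and CDS counts were near equal, at 152 and 163 footprints. Whether the same reads were counted under both features was not tested. If they were, the share is not leader occupancy and the summed ratio counts them more than once. The member called higher, Oaz1, encodes the antizyme of ODC1 and had 95 footprints and no RNA read in any library, although the antizyme message is widely expressed. Its ratio rests on that RNA count of 0.

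Ribosomal protein genes had the lowest medians of the 38 lists, although the small subunit lost that place to the polyadenylated histone variants (-2.38) without genes that have a pseudogene, an overlap or no RefSeq match. Of 46 large subunit genes 40 were called lower, 2 higher and 4 neither, and the median was -6.53. Of 31 small subunit genes 26 were called lower, none higher and 5 neither, with a median of -3.66. These medians rest largely on genes with few footprints: over the 23 large and 19 small subunit genes with at least 10 reads in every library they were -3.63 and -1.86. Without genes that have a named pseudogene, an overlapping coding gene or no RefSeq match they were -4.17 and -1.65. Summed over the large subunit genes, footprints were at 12990 ± 333 CPM (SD, n = 3) and RNA at 42380 ± 2796 CPM. Small subunit genes summed to 12022 ± 438 CPM of footprints and 34570 ± 1754 CPM of RNA. Each difference of sums had an exact permutation p of 0.1, the smallest that 3 against 3 libraries allow.

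Processed pseudogenes, near-copies of an mRNA elsewhere in the genome, are common for these genes, and RefSeq lists at least 1 pseudogene named after the gene for 62 of the 77. Of those 62, 56 were called lower (90.3%) with a median of -6.75, and of the 15 without, 10 were called lower (66.7%) with a median of -2.41. The same held outside the ribosome. Among other genes with a named pseudogene 127 of 218 were called lower (58.3%), against 23.2% of other genes without. No source used here says how footprints that match several places were counted, and the part of pseudogenes in these ratios was not tested. Pseudogenes that carry other names are not in this count.

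Within the family the range was wide. Rpl8 had 4878, 4493 and 4519 CPM of footprints against 2376, 2531 and 2477 CPM of RNA (log2 0.91 ± 0.08). At the other end, among genes with at least 10 footprints in every library, Rpl12 had 3.89, 2.83 and 2.76 CPM of footprints against 645, 737 and 780 CPM of RNA, a 227-fold gap. Most of these proteins are built into the ribosome in equal numbers. Rpl30 went the other way, with 273, 326 and 420 CPM of footprints against 1.87, 1.08 and 1.16 CPM of RNA (log2 7.95 ± 0.20). Rpl26 had 767 footprints and no RNA read, at least 1373-fold higher against a floor of 3 reads over the RNA libraries. RefSeq lists 10 pseudogenes named after Rpl30.

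**Figure D3:**
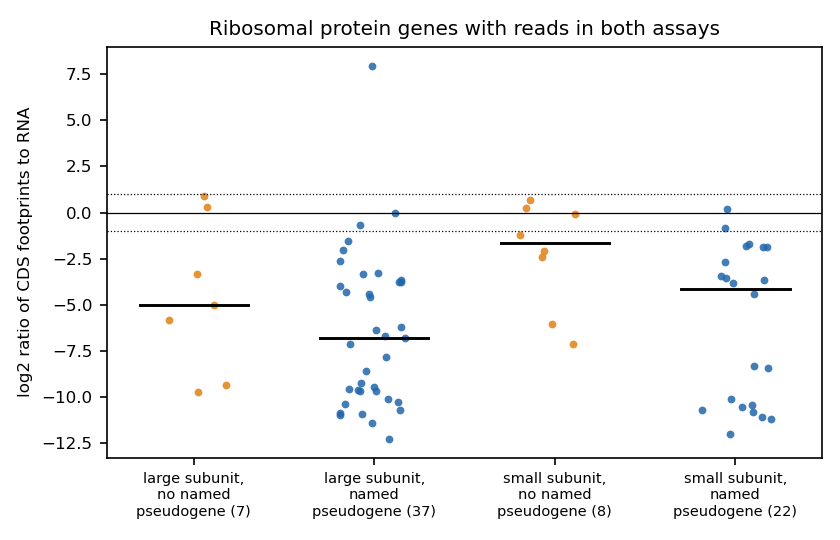
Log2 ratio of CDS footprints to RNA for ribosomal protein genes with reads in both assays, split by subunit and by whether RefSeq lists a pseudogene named after the gene. Each point is a gene and each line a median. Both subunits reach lower ratios among genes with a named pseudogene, and Rpl30 is the point near 8.

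Other messages with a TOP tract, among them elongation factors, were mixed. Of 20 tested, 3 were called higher, 7 lower and 10 neither. Their median of -0.35 became 0.05 without genes that have a named pseudogene, an overlapping coding gene or no RefSeq match. Eef1b2, a subunit of the factor that recharges eEF1A, had 2192, 2400 and 2184 CPM of footprints against 921, 1053 and 953 CPM of RNA (log2 1.21). Gnb2l1, the ribosomal scaffold RACK1, had 5801, 5865 and 5914 CPM against 2405, 2648 and 2560 CPM (log2 1.21 ± 0.07). Eef2, the translocation factor, was near equal at 4268 ± 371 CPM against 3312 ± 31.4 CPM (SD, n = 3; log2 0.37). Tpt1, the tumour protein TCTP, had 10.1, 9.16 and 9.89 CPM against 1041, 1048 and 1263 CPM (log2 -6.85 ± 0.13) and has 7 named pseudogenes. The leader and CDS counts of Tpt1 were near equal, at 177 and 178 footprints. Whether the same reads were counted under both features was not tested.

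Pyrimidine runs of the kind found in TOP tracts could be read near the RefSeq start of genes with very different ratios. The sequences below are 30 bases near the RefSeq transcription start (GRCm38.p6, plus strand), with capitals marking the run CTTTC, the run CTTTT, the run CTCTT and the run CCTTT where present. They are shown for the contrast in their ratios, first genes with a low and then genes with a near-equal or positive ratio, and were chosen for it among ribosomal protein and TOP list genes that hold such a run.
Rpl12: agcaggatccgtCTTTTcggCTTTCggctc
Fau: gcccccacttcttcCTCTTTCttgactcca
Rps25: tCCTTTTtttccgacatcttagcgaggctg
Rpl18: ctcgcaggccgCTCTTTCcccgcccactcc
Rps9: ccttgtctCTCTTtgtctcgggcctgagtt
Rpl4: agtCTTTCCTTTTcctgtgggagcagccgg
Eef2: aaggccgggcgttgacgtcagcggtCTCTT
Eif3f: gCTCTTctgttctaggctctctCTCTTTCt

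A TOP tract begins at the capped first base, and the runs lie at different distances from the RefSeq start. Counted from 0 at the start base, the first run begins at 2 in Rpl12, 4 in Fau, 1 in Rpl18 and -3 in Rps9, but at 15 in Eef2 and upstream, at -19 in Rps25, -17 in Rpl4 and -19 in Eif3f. Eif3f holds 3 runs, and the last begins at 4, so it too has a run near the start. Rpl12 (chr2:32961702-32961731) holds 2 runs and Rpl4 (chr9:64173367-64173396) 3 overlapping or adjoining runs, and their log2 ratios were -7.83 and 0.30. Fau, at chr19:6057937-6057966, encodes a fusion that yields the small subunit protein eS30 and had a ratio of -7.49, with 75.2% of its few footprints in the leader. Rps25 (chr9:44407694-44407723) and Rpl18 (chr7:45718061-45718090) had ratios of -4.40 and -3.99. Rps9 (chr7:3704030-3704059), Eef2 (chr10:81176621-81176650) and Eif3f (chr7:108934395-108934424) had ratios of 0.24, 0.37 and 0.85.

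Any of the 4 runs, on the sense strand within 20 bases of the start, was found in 15.1% of all RefSeq promoter windows and in 14.7% on the other strand. The motifs overlap each other. The share was 15.6% of called higher genes, 13.9% of neither and 15.4% of called lower genes. It was 26 of 57 ribosomal protein genes with a window (45.6%) and 7 of 12 genes of the TOP list (58.3%). The RefSeq start need not be the start used in these cells.

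All members of the cytosolic tRNA synthetase list, enzymes that load amino acids, had positive ratios. Of 21 tested, 13 were called higher, none lower and 8 neither, with a median of 1.07. The lowest, Fars2 (log2 0.41, called neither), is a mitochondrial enzyme, so the list is not purely cytosolic. Eprs, the bifunctional synthetase for glutamate and proline, had 1328, 1287 and 1081 CPM of footprints against 334, 305 and 335 CPM of RNA (log2 1.92 ± 0.09), and Lars had 943, 892 and 795 CPM against 267, 238 and 250 CPM (log2 1.80). The list as a whole took 12544 CPM of footprints and 5231 CPM of RNA.

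Of 36 tested initiation factors 8 were called higher (22.2%), 10 lower (27.8%) and 18 neither (median 0.51). Over all tested genes the shares were 14.8% and 24.4%. Eif3g, a subunit of the scaffold eIF3, had 1081, 1113 and 1118 CPM against 309, 326 and 326 CPM (log2 1.78 ± 0.07). Eif4a1, the helicase that unwinds leaders, had the lowest ratio that the naming rule gave, with 3.89, 2.33 and 2.11 CPM of footprints against 701, 722 and 629 CPM of RNA, a 245-fold gap. No pseudogene in RefSeq carries its name. Mitochondrial ribosomal proteins centred on the typical gene, with 10 of 76 called higher, 10 lower and 56 neither (median 0.01). Ribosome biogenesis factors were mostly above it, with 10 of 40 higher, 3 lower and 27 neither (median 0.71).

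All 8 subunits of the CCT chaperonin, which folds actin and tubulin, had positive ratios; 7 were called higher and Cct7 (log2 0.97) fell just short. Cct5 had 2718, 2737 and 2447 CPM of footprints against 731, 728 and 759 CPM of RNA (log2 1.83 ± 0.08). Actb, a substrate of that chaperonin, had the most footprints of the genes with counts, 6742 ± 260 CPM against 1930 ± 57.0 CPM of RNA (SD, n = 3; log2 1.80). The adult globins had no counts and are outside this ranking.

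Of 38 proteasome subunits 15 were called higher, 4 lower and 19 neither (median 0.79). Psmd6, a lid subunit, had 920, 832 and 846 CPM against 228, 230 and 223 CPM (log2 1.93). Psma3, a core subunit, went the other way (log2 -1.98 ± 0.11), with 49.9% of its footprints in the leader. Its leader and CDS counts were near equal, at 825 and 828 footprints. Whether the same reads were counted under both features was not tested, so this share need not be leader occupancy.

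Among ER chaperones and degradation factors 9 of 31 were called higher, 2 lower and 20 neither (median 0.54). Hspa5, the ER chaperone BiP, had 1750, 1916 and 1997 CPM of footprints against 444, 482 and 518 CPM of RNA (log2 1.97 ± 0.09, adjusted p = 9.11e-12). Hsp90b1, its partner GRP94, had 1352, 1462 and 1416 CPM against 262, 296 and 337 CPM (log2 2.24). Selk, a small selenoprotein of the ER, was the lowest member (log2 -3.60). ER targeting and export genes were spread evenly, with 7 of 32 higher, 6 lower and 19 neither. Heat shock chaperones were as mixed: 4 of 21 were higher, 5 lower and 12 neither, with Hsph1 at log2 1.61 and Hspa8, the constitutive HSP70, at log2 -3.18 (126 ± 13.2 against 1140 ± 143 CPM, SD, n = 3).

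Of 40 DNA replication genes 16 were called higher, none lower and 24 neither (median 0.82). Pola1, the catalytic subunit of the priming polymerase, had 454, 414 and 329 CPM of footprints against 85.1, 72.0 and 74.6 CPM of RNA (log2 2.37 ± 0.11). Rrm1, of ribonucleotide reductase, had 1985, 1788 and 1464 CPM against 471, 421 and 410 CPM (log2 2.01). Of 30 G2/M and mitosis genes 13 were higher, none lower and 17 neither (median 0.65), with Cdk1 at log2 1.87. Of 26 nuclear pore genes 15 were higher, 2 lower and 9 neither (median 1.08), with Nup98 at log2 2.05 and Pom121 at -1.90.

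**Figure D4:**
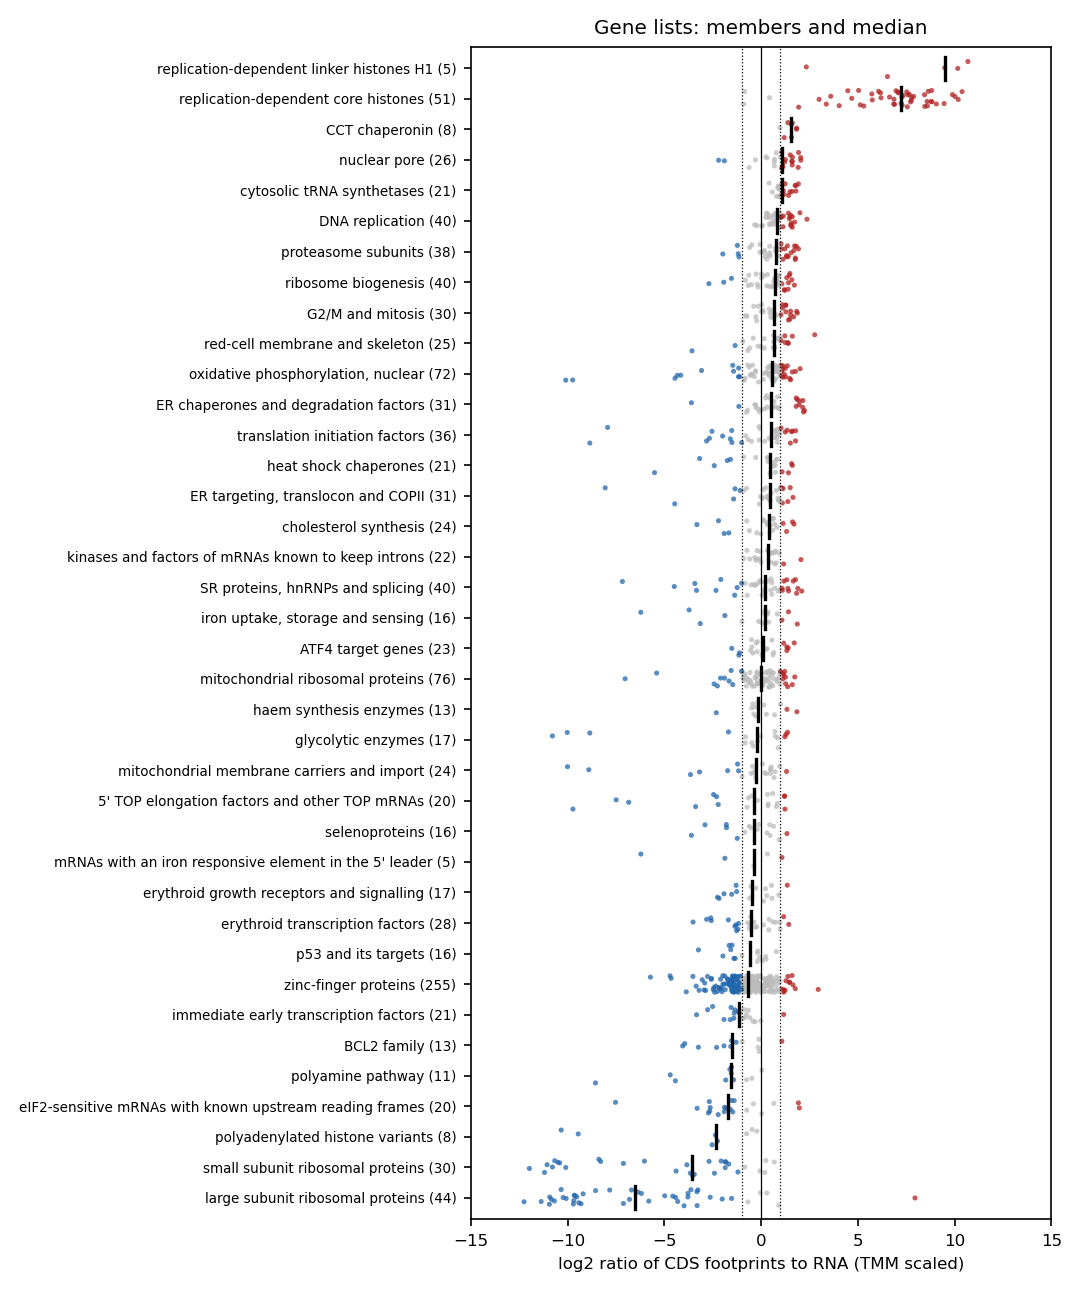
Log2 ratio of CDS footprints to RNA for tested members of 38 gene lists that have reads in both assays (number in brackets), coloured by call (red higher, blue lower, grey neither), with a black line at the median of the points drawn. Histone lists lie at the top and ribosomal proteins at the bottom. Points of genes with very few reads in an assay rest on those few reads.

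Replication-dependent histones, made in bulk in S phase, had the highest medians of the 38 lists. Their mRNAs end in a stem-loop and mostly lack a poly(A) tail. Of 51 tested core histone genes 48 were called higher, none lower and 3 neither, and all 5 H1 linker genes were called higher. The core median of 7.23 was 5.22 over the 16 genes with at least 10 reads in every library. Summed over the core genes, footprints were at 9979 ± 1398 CPM (SD, n = 3) and RNA at 109 ± 12.3 CPM. Hist1h1d had 1335, 1151 and 1194 CPM of footprints against 1.75, 1.96 and 0.868 CPM of RNA.

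The genes listed as polyadenylated histone variants did not share this. Of 8 tested, none was called higher, 5 lower and 3 neither (median -2.31): H1f0 stood at log2 -2.53, Cenpa at -2.36 and H2afx at -0.47. Hist1h4i (log2 -0.85) and Hist2h2be (log2 -0.91) were the core members with more RNA than footprints. The labels name a TruSeq kit for RNA and do not say whether poly(A) RNA was selected. Whether the RNA assay recovers the stem-loop messages was not tested, and the histone ratios are given without a reading as translation. Near-identical histone copies also share reads, so the value of a single histone gene is uncertain.

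Of 21 immediate early transcription factors 11 were called lower, 1 higher and 9 neither (median -1.13). Jund, an AP-1 subunit, had 22.5, 18.5 and 20.3 CPM of footprints against 243, 185 and 192 CPM of RNA (log2 -3.34 ± 0.13). Of 13 genes of the BCL2 family, which decide on cell death, 8 were lower, 1 higher and 4 neither (median -1.53, or -0.88 without genes that have a pseudogene, an overlap or no RefSeq match). Bnip3l, needed to clear mitochondria from maturing red cells, had 21.6, 20.2 and 25.1 CPM against 368, 374 and 370 CPM, a 16.6-fold gap, and has 1 named pseudogene. Bax was near equal (log2 -0.09).

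In these cells, labelled Trp53 -/-, 7 of 16 tested genes of p53 and its targets were lower, none higher and 9 neither. Their median of -0.59 ranged from -1.06 to -0.21 over the alternatives. Zinc-finger genes named Zfp, most of them repressors, counted 91 lower, 13 higher and 151 neither of 255 (median -0.67). Selenoproteins counted 5 lower (31.2%), 1 higher and 10 neither of 16, and mitochondrial carriers and import genes 7 lower (29.2%), 1 higher and 16 neither of 24, both near the 24.4% of all tested genes. Slc25a5, the adenine nucleotide carrier, was among the low carriers, with 66.1 CPM of footprints and 832 CPM of RNA on average (log2 -3.65).

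Metabolic lists were split, as were all tested genes, of which 14.8% were called higher and 24.4% lower. Of 75 nuclear oxidative phosphorylation genes 18 were called higher, 13 lower and 44 neither (median 0.56), with Ndufb2 at log2 2.02 and Cox6c at -4.15. The catalytic ATP synthase subunits Atp5a1 (log2 1.77) and Atp5b (log2 1.06) were among the 10 genes with the most footprints, adult globins not counted. Of 17 glycolytic genes 3 were higher (17.6%), 4 lower (23.5%) and 10 neither (median -0.19), near the shares of all tested genes. Hk1, the hexokinase of red cells, had 702, 729 and 714 CPM against 1234, 1294 and 1274 CPM (log2 -0.83), while Hk2 was higher at log2 1.37. Cholesterol synthesis had 4 higher (16.7%), 4 lower (16.7%) and 16 neither of 24. Hmgcs1, the synthase of an early step, stood at log2 1.62 and Idi1 at -3.32. Splicing factors had 11 higher, 9 lower and 20 neither of 40, with Snrnp200 at log2 2.10 and Hnrnpa3 at -4.49. Genes whose mRNAs are known to keep introns had 2 higher (9.1%) and none lower of 22, with Srrm2 at log2 2.06.

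The largest ratios outside the histones belonged to genes with little RNA. The 15 that the naming rule took, from log2 3.15 to 7.95, had 1.21 to 39.1 CPM of RNA. Of these, 5 overlap another coding gene in RefSeq, 2 have a named pseudogene and 1 has no RefSeq match, which leaves their reads uncertain. Dpm1, a subunit of dolichol-phosphate mannose synthase, had 149, 153 and 170 CPM of footprints against 1.1, 1.1 and 1.45 CPM of RNA. Iqgap1, a cytoskeletal scaffold, had 256, 439 and 351 CPM against 42.5, 36.5 and 38.2 CPM (log2 3.16 ± 0.15), and the non-erythroid spectrin Sptan1 had 59.2, 130 and 109 CPM against 10.6, 8.75 and 8.6 CPM. In both genes footprint library 1 was the lowest and still lay above every RNA value. Lnpep, a membrane aminopeptidase, was steadier, at 155, 164 and 166 CPM against 17.5, 14.4 and 15 CPM (log2 3.37 ± 0.10).

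Among the 15 lowest, from log2 -5.60 to -7.94, 7 have a named pseudogene and 1 overlaps another coding gene. Stmn1, which destabilises microtubules, had 2.43, 1.67 and 2.11 CPM of footprints against 227, 230 and 240 CPM of RNA (log2 -6.80 ± 0.13). Yet 7248 untreated harringtonine reads were listed at 2 positions of this gene. Whether either position is its start codon was not tested. Pabpc4, a poly(A)-binding protein, had 5.35, 5.16 and 5.68 CPM against 413, 410 and 431 CPM (log2 -6.27). Cd24a, a surface glycoprotein of early erythroid cells, was abundant as RNA, at 4266, 3858 and 4030 CPM, and had 110, 101 and 140 CPM of footprints (log2 -5.11). It stands outside the naming rule and was chosen after its values were seen.

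Some messages had no CDS footprint at all: 60 tested genes had 0 in the 3 libraries together. Llph had the most RNA of them, 87.6 CPM, and was at least 552-fold lower in footprints against a floor of 3 reads over the footprint libraries. Cycs, cytochrome c, had 38.4 CPM of RNA, no footprint and 3 named pseudogenes, and was at least 228-fold lower. Conversely 15 tested genes had footprints and no RNA read.

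Other readouts of the same genes were set beside the call. Leader footprints per 1000 RNA reads had medians of 5.88 in called higher genes, 5.69 in neither and 5.28 in called lower genes, close to each other, while CDS footprints, which made the call, were at 468, 198 and 58.6 per 1000 (genes with at least 10 CDS footprints and RNA reads in every library). The share of footprints in the leader accordingly had a median of 1.18% in higher genes and 9.17% in lower genes, and 29.6% of lower genes had more than 20% of their footprints there, against 2.04% of higher genes. Harringtonine, which holds ribosomes at start codons, gave a listed position for 59.0% of higher, 45.0% of neither and 35.8% of lower genes. Where it did, the median number of harringtonine reads per 1000 RNA reads was 12.7, 9.74 and 7.42. The values per 1000 RNA reads share their RNA count with the call, and the leader share its CDS count. The share of genes with a listed harringtonine position uses neither count. The positions are listed in common for untreated and tunicamycin libraries, so tunicamycin reads may bear on that share. All of these are descriptions without a test.

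Gene length moved with the ratio too. The median span of the gene on the genome was 32.6 kb in called higher genes and 16.6 kb in called lower genes. With genes ranked by span and cut into 3 equal parts, the median ratio was -0.20 for the shortest, 0.06 for the middle and 0.20 for the longest. The span includes introns and says little of the CDS, and its part in the calls was not tested.

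**Figure D5:**
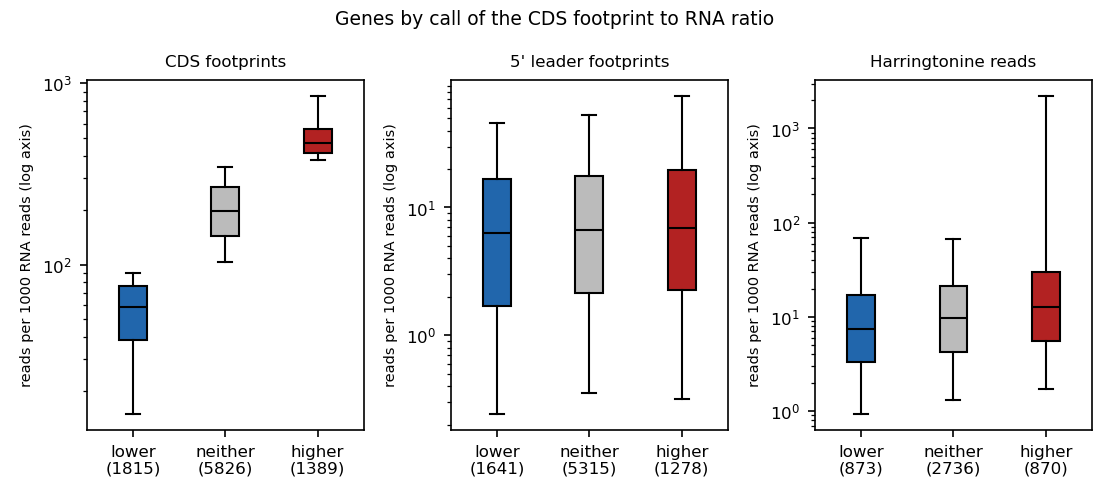
Reads per 1000 RNA reads (log axis) for genes called lower, neither and higher: CDS footprints, leader footprints and untreated harringtonine reads. Boxes span the quartiles with a line at the median and whiskers from the 5th to the 95th percentile; footprint panels hold genes with at least 10 reads in every library, genes at 0 are not drawn, and numbers of genes are in brackets. CDS footprints separate the classes by construction, leader medians among genes drawn lie between 6.32 and 6.95, and harringtonine medians run from 7.42 to 12.7.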

How the data were processed

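The authors deposited raw counts of footprints per gene feature (5' leader, CDS, 3' UTR) and of RNA per gene, as whole numbers, and counts of harringtonine reads at kept positions. The submitters' processing notes list STAR, HTSeq and edgeR, and mm10 and GRCm38 as builds; tool versions, strand and the handling of reads with several matches were not stated in the sources used. The RNA count, the same on each feature line of a gene, was used once. CDS footprints and RNA of the 6 untreated libraries were compared with edgeR 4.0.16 (R 4.3.3; limma 3.58.1, DESeq2 1.42.0 for alternatives): genes were filtered with filterByExpr (at least 10 per sample, 15 in total), scaled by TMM, fitted by quasi-likelihood and adjusted by Benjamini-Hochberg over 10000 genes. Every adjusted p comes from this test. TMM sets the typical gene near 0, so ratios are relative to it. Levels are CPM on TMM-scaled library sizes, given as mean and SD (n = 3). Depth was 6415127 to 6652042 CDS footprints and 12883350 to 48992797 RNA reads a library. On simulated counts 50 of 50 genes were recovered at each of 4 simulated ratios, the smallest a log2 of 1.5 in size, with no false call among 9687 unchanged genes. Only 200 of 9887 genes were changed, drawn from genes expected to have enough reads in the smallest library. The simulation therefore does not cover genes with few reads, or scaling when as many genes differ as here.

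Genes named were, among called genes with no overlap between assays, outside replication-dependent histones and outside genes whose leader footprints were 0.8 to 1.25 times the CDS footprints, the 15 highest ratios (at least 20 CPM of footprints and 10 RNA reads in every library) and the 15 lowest (at least 20 CPM of RNA and 10 footprints in every library), the 10 with the most footprints, up to 4 members of each list and 13 chosen genes. The members and lists were chosen with earlier results of these data known. List members were not held to the condition on leader footprints, and Psma3, Sat1 and Tpt1 have near-equal leader and CDS counts. The same holds for the histone Hist1h2ag, which is drawn but not described. Overlaps and pseudogenes were read by symbol from RefSeq genes (GRCm38.p6), which matched 19599 of 20683 symbols, and start-site sequences from RefSeq promoters. The same replicate numbers in footprints and RNA were not used to pair the samples. List sums of 3 against 3 libraries were tested by exact permutation (2-sided, smallest possible p 0.1). The rule also took a few genes whose values are left out here. Coverage tracks and tunicamycin counts were not analysed here, but the list of harringtonine positions is shared with the tunicamycin libraries.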

Additional observations from a re-analysis of the deposited data

How the results depend on the processing

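The counts of 1484 higher and 2440 lower genes became 931 and 1486 when a mean of 50 reads in each assay was required, which tests fewer genes. Over all alternatives they ranged from 931 to 1621 and from 1486 to 2838. Leaving out 1 library at a time gave 1468 to 1570 higher and 2361 to 2554 lower genes. Scaling by library totals gave 1046 and 2821 and moved the median of all genes by -0.18, and the test without a filter moved it by -0.27. Testing against the 2-fold line gave 1038 and 1938. Leaving out genes with an overlapping coding gene, a named pseudogene or no RefSeq match, an alternative chosen after seeing the data, gave 1030 and 1678. With replicate number as a block the counts were 1477 and 2444. The deviations of same-numbered samples correlated at 0.278, 0.014 and 0.154, and those of other pairs at -0.252 to 0.132. Each footprint library correlated best with the RNA library of its number, but by little for replicates 2 and 3. Whether the numbers mark a pairing cannot be told from this, and the main fit used none.

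Ratios near 0 changed sign. Dhps, 0.04 as reported, was -0.14 with library totals, -0.12 with a mean of 50 reads and -0.035 with leader and CDS summed, and ranged from -0.040 (without footprint replicate 3) to 0.13 without 1 library. Klf6, -0.02 as reported, was 0.023 with DESeq2 size factors and 0.021 with DESeq2, and ranged from -0.096 to 0.10 without 1 library (0.10 without footprint replicate 3, 0.026 without RNA replicate 3). The cause was not tested. Of the named genes, Atp5b, Ncl, Slc40a1, Myc, Ogt, Bik, Edem1, Xpot, Ermap and Sat1 lost their call under at least 1 alternative (Atp5b, Xpot, Ermap and Sat1 with leader and CDS footprints summed), and Cct7, Timm10, Vimp, Hk1, Luc7l2, Clk2, Hist1h4i and Hist2h2be gained 1. Medians of the TOP, haem, ATF4 target, glycolytic and mitochondrial ribosomal lists lie close enough to 0 that the TOP (-0.53 to 0.05), ATF4 target (-0.08 to 0.18), glycolytic (-0.42 to 0.18) and mitochondrial ribosomal (-0.18 to 0.05) medians changed sign, while the haem median stayed between -0.35 and -0.05. The large and small subunit ribosomal medians ranged from -6.72 to -3.64 and from -3.85 to -1.65, and the H1 median from 5.75 to 9.71. A per-length ratio was planned and not run, as no coding or transcript lengths were used here. Genes with fewer than 10 footprints on average (717 of those tested) have ratios limited by depth.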
